A study of Mus musculus with 36 samples.

Results

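Gm364, Kank4os, Platr14, Igbp1b, Gm4371 and 9430018G01Rik are 6 of the 24421 genes counted in the cerebellum and hippocampus of Pogz-deficient mice. They are poorly described or noncoding transcripts, and they were chosen by their counts, which were near 0 in the control libraries of at least 1 tissue and higher in cKO-/- libraries. What the choice used, the difference between control and cKO-/-, is given below as a description with no test. All animals were adult mice of strain C57Bl/6, with 3 males and 3 females per genotype, and each of the 18 animals gave both tissues. Control mice carried Pogz fl/fl alleles without Cre and kept 2 intact alleles, cKO+/- mice were NesCre/+; Pogz fl/+ with 1 intact allele, and cKO-/- mice were NesCre/+; Pogz fl/fl with 0. The Cre recombinase is driven by the Nestin promoter, which is active in neural progenitors, so cells of other origin, such as microglia and vessel walls, keep their Pogz alleles. Controls lack the Cre transgene, and an effect of Cre cannot be told apart from the loss of Pogz. Both tissues are mixtures of cell types, in which fewer expressing cells and less RNA per cell cannot be told apart.

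POGZ is a zinc finger protein that binds HP1, a protein of closed chromatin, and takes part in transcriptional repression. The 6 transcripts are of several kinds. A long noncoding RNA (lncRNA) is a transcript that is not translated, and it often has no known function. An antisense transcript lies on the opposite strand of another gene, a pseudogene is a decayed gene copy, and a retrocopy is an intronless gene copy made from a reverse-transcribed mRNA.

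By the coordinates in the tables, which are those of GRCm38, Gm364 lay on the plus strand of chrX:57409149-57488771 with 17 exon blocks and 2165 exonic bases, and RefSeq lists it as protein coding. Igbp1b, also protein coding in RefSeq, lay on the minus strand of chr6:138657092-138658444 as a single block of 1353 bases. It is a retrocopy of Igbp1, whose protein binds the catalytic subunits of protein phosphatase 2A. Kank4os (chr4:98793768-98799037, plus strand, 3 blocks, 2388 exonic bases) is an lncRNA that lay within the span of Kank4 on its opposite strand. 9430018G01Rik (chr6:43442429-43474318, plus strand, 3 blocks, 4095 exonic bases) is an lncRNA. Platr14 (chr2:104559184-104571429, plus strand, 4 blocks, 1145 exonic bases) is an lncRNA of the pluripotency-associated transcripts, a series named in mouse embryonic stem cells. Gm4371 (chr15:96182800-96203470, plus strand, 2 blocks, 1610 exonic bases) is listed as a transcribed pseudogene, and the lncRNA 2610037D02Rik crossed it on the opposite strand. Neither of these overlaps included a shared exonic base, and whether the counting used the strand is not given in the sources used here.

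RefSeq promoters of build GRCm38.p6 were held for 4 of the 6 transcripts. They are shown from 250 bases before to 50 bases after the annotated start, since the members share a direction of change and not a chromosomal position; capitals mark each CG dinucleotide. They lie on the plus strand of chrX:57408899-57409198, chr4:98793518-98793817, chr2:104559209-104559508 and chr6:43442179-43442478, in the order printed.
Gm364: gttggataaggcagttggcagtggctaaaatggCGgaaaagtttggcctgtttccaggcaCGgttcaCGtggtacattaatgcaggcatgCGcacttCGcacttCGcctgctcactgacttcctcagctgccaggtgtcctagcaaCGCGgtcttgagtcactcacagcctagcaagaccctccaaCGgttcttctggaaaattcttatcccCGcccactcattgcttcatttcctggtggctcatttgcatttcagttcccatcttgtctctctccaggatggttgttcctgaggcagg
Kank4os: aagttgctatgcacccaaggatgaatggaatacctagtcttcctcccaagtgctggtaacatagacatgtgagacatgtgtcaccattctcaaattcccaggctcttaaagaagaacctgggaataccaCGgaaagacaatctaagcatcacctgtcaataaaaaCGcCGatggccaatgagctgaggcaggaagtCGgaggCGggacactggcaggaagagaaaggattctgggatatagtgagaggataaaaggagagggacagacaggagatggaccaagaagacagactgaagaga
Platr14: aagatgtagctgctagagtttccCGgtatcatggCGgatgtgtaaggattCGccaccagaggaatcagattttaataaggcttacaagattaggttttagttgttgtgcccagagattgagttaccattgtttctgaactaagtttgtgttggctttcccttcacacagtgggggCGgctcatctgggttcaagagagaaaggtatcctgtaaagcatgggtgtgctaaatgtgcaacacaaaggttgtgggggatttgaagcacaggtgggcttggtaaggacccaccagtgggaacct
9430018G01Rik: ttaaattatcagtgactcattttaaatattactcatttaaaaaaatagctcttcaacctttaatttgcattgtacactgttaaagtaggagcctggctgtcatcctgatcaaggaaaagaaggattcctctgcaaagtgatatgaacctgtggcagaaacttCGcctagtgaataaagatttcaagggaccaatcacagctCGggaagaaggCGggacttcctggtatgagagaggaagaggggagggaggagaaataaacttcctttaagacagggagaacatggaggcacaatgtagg

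The Gm364 promoter held 10 CG dinucleotides, that of Kank4os 5, that of Platr14 4 and that of 9430018G01Rik 3, against a median of 7 over 32851 promoters. The RefSeq start used for Platr14 lies inside the first exon block of the table. The start used for Gm364 is chrX:57409149, that of the table, while the RefSeq span of the gene begins upstream, at chrX:57400767. Sequence at that other end was not examined. Motifs were picked after these sequences had been read, and both strands were searched. The E-box CACGTG was present in the Gm364 window, with its first base 185 bases before the start, and in 7.15% of all promoters. ATGGCGG stood 221 bases before the start of Gm364 and 220 bases before that of Platr14, and in 4.05% of all promoters. GGCGGGA stood 50 bases before the start of Kank4os and 40 bases before that of 9430018G01Rik, and in 11.3% of all promoters. TATAAA, present in 13.6% of promoters, was in none of the 4 windows. These are matches of letters only.

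The summed gene count ranged from 21421850 to 32544929 in the cerebellum and from 17609321 to 45544188 in the hippocampus. Levels are in CPM, the count scaled by the library total with TMM factors, and intervals on sums of counts cover counting error only. The Pogz level was 99.6 ± 15.2 (SD, n = 6), 77.7 ± 5.78 and 65.8 ± 7.34 CPM in control, cKO+/- and cKO-/- cerebellum; these counts include exons outside the deleted ones. It fell by 0.30 per allele lost on the log2 scale (SE 0.046; edgeR quasi-likelihood test, Benjamini-Hochberg adjusted p = 0.000356), and in the hippocampus by 0.28 (SE 0.0205; edgeR, adjusted p = 1.79e-07). One RNA sample was excluded by the study as an outlier, without a name, and here the hippocampal library of cKO-/- Sample_1160 is left out of the values given first, so that n is 5 in that group. Cerebellar granule cell RNA was seen in the hippocampal library of control Sample_1129, with the granule cell marker Gabra6 at 49.4 CPM against at most 1.09 CPM in the other 17 hippocampal libraries. Choroid plexus RNA differed between libraries, with the choroid marker Ttr from 0 to 2935 CPM in the cerebellum and from 0.166 to 4557 CPM in the hippocampus. All libraries otherwise carried their tissue's markers: Gabra6 was between 498 and 1075 CPM in the cerebellum, and Neurod6, of hippocampal pyramidal neurons, between 141 and 247 CPM in the hippocampus.

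In the cerebellum, 5 of the 6 transcripts were higher in every cKO-/- library than in every control library, all but Igbp1b, and in the hippocampus all 6 were, also with Sample_1160. Of all genes with a count, 2.14% did so in the cerebellum (438 of 20443) and 1.36% in the hippocampus (287 of 21089). The members were selected on this contrast, so nothing is read from their count. The filter of more than 1 CPM in at least 6 libraries was passed by 4 members in the cerebellum (Gm364, Kank4os, Gm4371 and 9430018G01Rik) and 4 in the hippocampus (Gm364, Platr14, Igbp1b and Gm4371). All 4 in the cerebellum, and Gm364 and Platr14 in the hippocampus, passed through the cKO-/- libraries for which they were chosen. Hippocampal Gm4371 was above 1 CPM in every library. Hippocampal Igbp1b was above it in 5 of the 6 cKO+/- libraries and in no control, so it too passed only with cKO-/- libraries.

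**Figure D1:**
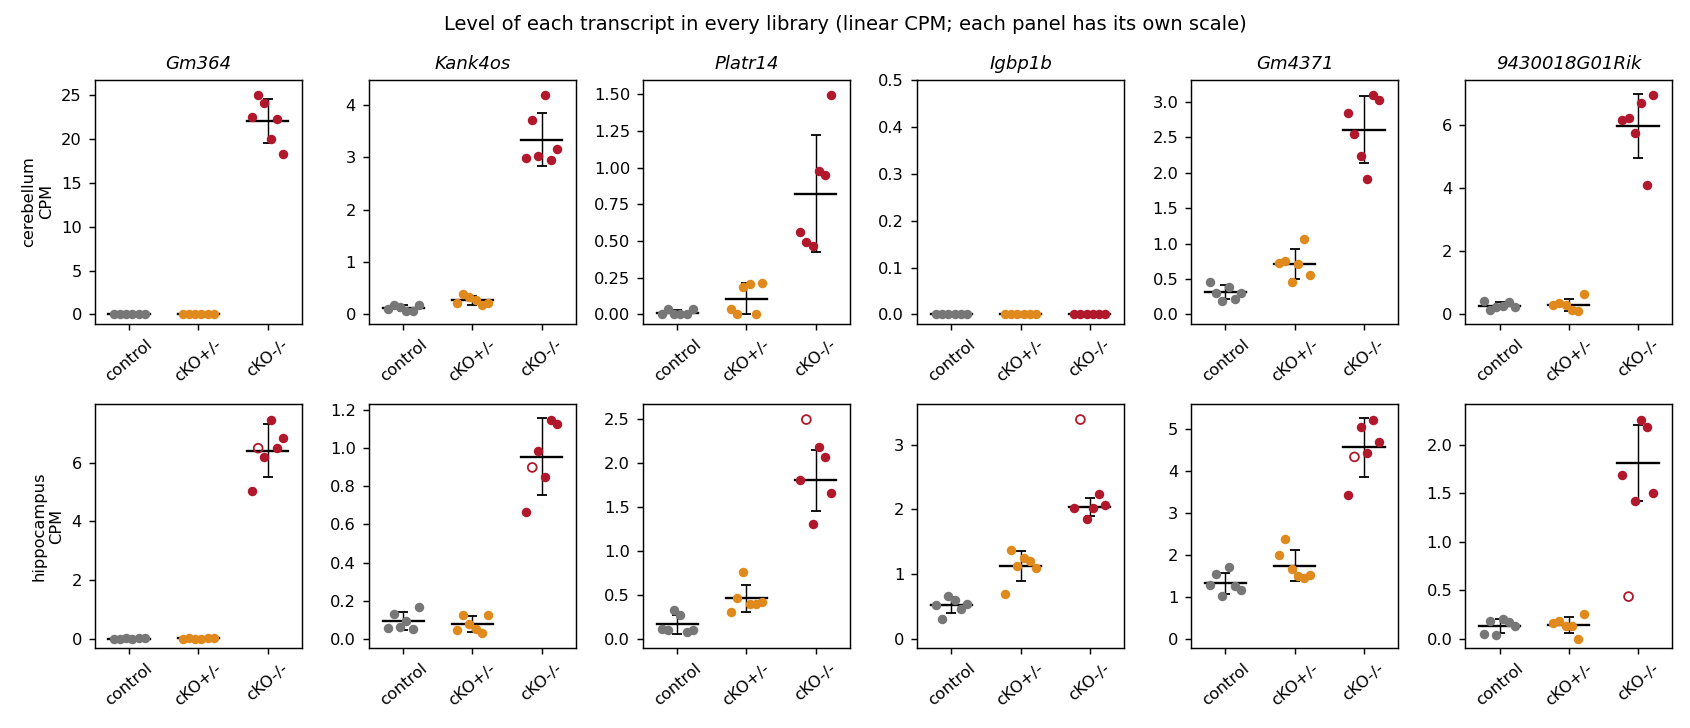
Level in CPM (linear axes, a scale per panel) of the 6 transcripts in each cerebellar (top) and hippocampal (bottom) library; bars are mean and SD, and open circles mark the library of Sample_1160, which is outside the mean. Gm364 was between 18.3 and 25.0 CPM in cKO-/- cerebellum and at 0 in all cKO+/- cerebella, while Igbp1b stepped up with each allele lost in the hippocampus and had no count in the cerebellum.

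Gm364, a predicted protein-coding gene, was switched from no reads or single reads to a clear signal. In the cerebellum, control libraries held 0, 1, 0, 0, 0 and 0 counts, in the order of animal numbers, all 6 cKO+/- libraries held 0, and the cKO-/- libraries held 602, 560, 722, 430, 654 and 539. Every cKO-/- library was far from both other groups, and the 12 libraries with an intact allele could not be told from 0. The level in cKO-/- was 22.02 ± 2.49 CPM (n = 6), a spread of 11.3% of the mean, although the same libraries ranged from 0.0333 to 2807 CPM for Ttr. With 1 count in all controls together, the ratio of the summed levels was 3749 with a 95% counting interval from 673 to 148100. The cKO-/- level was 1289 times that of 3 counts over the cKO+/- group, which is the limit that a sum of 0 allows. With the counting error of both sums, the lower 95% limit of the ratio of cKO-/- to cKO+/- was 1048.

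In the hippocampus Gm364 had 0 or 1 count in each control and in each cKO+/- library. The cKO-/- libraries held 182, 214, 185, 113 and 182 counts, and that of Sample_1160 held 253. Groups did not overlap, and the level in cKO-/- was 6.41 ± 0.897 CPM (n = 5), or 6.42 ± 0.803 CPM with Sample_1160. The sums of 3 counts in controls and 876 in cKO-/- gave a ratio of 491 (95% counting interval, 167 to 2384). The mean of cKO+/- lay at -0.026% ± 0.026 (SE) of the way from control to cKO-/- in the cerebellum and at 0.063% ± 0.157 in the hippocampus, where an additive effect on the linear scale would put it at 50%. Nearly all of the level thus appeared with the loss of the second allele.

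9430018G01Rik, an lncRNA, followed the same course from a low but measurable level. Cerebellar controls held 4 to 12 counts (median 7.5), cKO+/- libraries 4 to 21 (median 8), and cKO-/- libraries 121 to 205 (median 154.5). Control and cKO+/- libraries overlapped throughout, and cKO-/- libraries lay far above both. The levels were 0.282 ± 0.104, 0.309 ± 0.189 and 5.99 ± 1.01 CPM, so that the ratio of cKO-/- to control was 21.1 (95% counting interval, 15.8 to 28.8), and the cKO+/- mean lay at 0.49% ± 1.54 of the way. In the hippocampus the controls held 2 to 9 counts, the cKO+/- libraries 0 to 7 and the cKO-/- libraries 61, 49, 56, 38 and 40. Sample_1160 stood apart from its group with 17 counts, still above all controls, and the ratio of cKO-/- to control was 13.2 (9.08 to 19.9) without it and 11.1 with it.

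Kank4os, antisense to Kank4, a gene of an ankyrin repeat protein of the cytoskeleton, was seen in every library. Cerebellar controls held 2 to 5 counts (median 3.5), cKO+/- libraries 6 to 11 (median 7.5) and cKO-/- libraries 80 to 93 (median 88.5). The 3 groups did not overlap in CPM, with 0.064 to 0.172 in controls, 0.187 to 0.399 in cKO+/- and 2.96 to 4.19 in cKO-/-. The cKO+/- mean lay at 4.59% ± 1.24 of the way, a small step beside that of the second allele. In the hippocampus, controls held 2 to 5 counts and cKO+/- libraries 1 to 4, and these overlapped, while the cKO-/- libraries held 24, 34, 21, 20 and 30 counts, with 35 in Sample_1160. The ratio of cKO-/- to control was 26.7 (17.3 to 43.5) in the cerebellum and 10.3 (6.48 to 17.2) in the hippocampus.

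Platr14 had a higher mean in cKO+/- than in control animals in both tissues. Its hippocampal controls held 3 to 15 counts (median 4), cKO+/- libraries 10 to 29 (median 14), and cKO-/- libraries 65, 45, 54, 36 and 44, with 97 in Sample_1160. Control and cKO+/- libraries met at their edges, at up to 0.324 and from 0.31 CPM, and every cKO-/- library was above both. The levels were 0.165 ± 0.107, 0.46 ± 0.157 and 1.8 ± 0.348 CPM, and the cKO+/- mean lay at 18.01% ± 4.8 of the way. In the cerebellum the counts were smaller, at 0 or 1 in controls, 1, 0, 5, 6, 0 and 7 in cKO+/- and 15, 11, 14, 21, 28 and 44 in cKO-/-. Of the cKO+/- libraries there, those of Sample_1120, Sample_1176 and Sample_1433 held 5, 6 and 7 counts, above all controls. The others held 0 or 1 count, as the controls did. The cKO-/- level of 0.824 ± 0.4 CPM had the widest relative spread of the members in that group (48.5%).

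Gm4371, the pseudogene, was never silent in the hippocampus, where controls held 35 to 74 counts (median 49), cKO+/- libraries 36 to 84 (median 59.5) and cKO-/- libraries 124, 174, 110, 91 and 125, with 169 in Sample_1160. The levels of 1.33 ± 0.249, 1.75 ± 0.367 and 4.57 ± 0.703 CPM overlapped between control and cKO+/-, and cKO-/- was above both. In the cerebellum the controls held 5 to 12 counts (median 9), the cKO+/- libraries 12 to 34 (median 20.5) and the cKO-/- libraries 41 to 91 (median 71.5). Controls reached 0.455 CPM and the lowest cKO+/- library, of Sample_1120, had 0.453 CPM, so these groups overlapped by that library alone. The cKO+/- mean lay at 17.3% ± 4.23 of the way in the cerebellum and at 12.9% ± 5.52 in the hippocampus.

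Igbp1b was the member whose level rose most evenly with allele loss, and only the hippocampus showed it. Hippocampal controls held 12 to 31 counts (median 19), cKO+/- libraries 26 to 47 (median 41), and cKO-/- libraries 73, 64, 50, 39 and 55. The 3 groups did not overlap in CPM, at 0.519 ± 0.122, 1.12 ± 0.233 and 2.04 ± 0.138, and the cKO+/- mean lay at 39.7% ± 6.75 of the way. Sample_1160 had 132 counts and 3.39 CPM, above the other cKO-/- libraries, and with it the position was 34.6% ± 7.34. Its Igbp1 level, at 42.9 CPM, also stood above the 22.8 to 27.1 CPM of the other cKO-/- hippocampi; the part of Igbp1 in the Igbp1b level of that library was not tested. In the cerebellum all 18 libraries held 0 Igbp1b counts, which allows up to 0.0176 CPM in the controls, 0.0171 CPM in cKO+/- and 0.0188 CPM in cKO-/-.

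**Figure D2:**
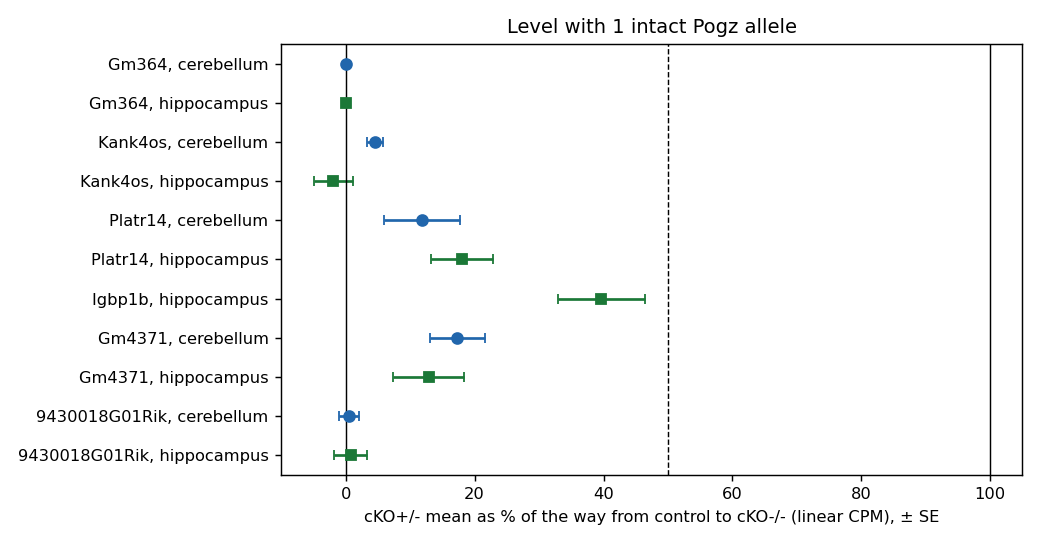
Position of the mean cKO+/- level between the control mean (0%) and the cKO-/- mean (100%) on the linear CPM scale, with SE, for each transcript in the cerebellum (circles) and hippocampus (squares); the dashed line is the additive position of 50%. Igbp1b lay nearest to that line, at 39.7%, Platr14 and Gm4371 lay between 11.8% and 18.01%, and the other 3 lay between -1.91% and 4.59%.

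The cKO+/- libraries took no part in choosing the members, although the controls they are compared with did. Hippocampal Igbp1b and Platr14 also passed the filter only with cKO-/- libraries, so a call of either is not independent of the choice. In the hippocampus, cKO+/- exceeded control in Igbp1b, the copy of Igbp1, by 1.10 on the log2 scale (SE 0.163; edgeR quasi-likelihood test, Benjamini-Hochberg adjusted p = 0.0156), with every cKO+/- library above every control. Of all genes, 5 of 14339 (0.0349%) were called. The call was lost with the covariate marking animal numbers outside Sample_1120 to Sample_1219, a range that holds every control (edgeR, adjusted p = 0.0695). It also rested on single animals, with adjusted p (edgeR) of 0.0609 without control Sample_1190, 0.0691 without cKO+/- Sample_938 and 0.0528 without cKO+/- Sample_1189. Platr14 differed by 1.42 (SE 0.308; edgeR, adjusted p = 0.118) and Gm4371 by 0.39 (SE 0.16; edgeR, adjusted p = 0.4), neither past the threshold of 0.05. Without cKO+/- Sample_1176, Platr14 passed it too (edgeR, adjusted p = 0.0373), in a fit that called 162 of 14324 genes.

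In the cerebellum, where 0.342% of 14027 genes were called, the Gm4371 pseudogene was 1.19 higher in cKO+/- (log2, SE 0.251; edgeR, adjusted p = 0.0497). Its controls were chosen for their low level and it passed the filter through its cKO-/- libraries, so this call is not independent of the choice, and no count over the members tested is read. It sat at the threshold and was lost with the covariate for animal numbers (edgeR, adjusted p = 0.137) and when any 1 of 16 of the 18 animals was left out, all but control Sample_1129 and cKO+/- Sample_1120, with adjusted p (edgeR) up to 0.147. Kank4os differed by 1.09 (SE 0.295; edgeR, adjusted p = 0.184) and 9430018G01Rik by 0.14 (SE 0.36; edgeR, adjusted p = 0.901). No fold is given for Gm364, with both groups at the floor of 3 counts. Every cKO+/- library lay above every control for Kank4os in the cerebellum and for Igbp1b in the hippocampus, as did 0.558% and 0.266% of all genes with a count in these tissues. For the members that failed the filter, the fit without a filter gave differences of 2.77 for Platr14 in the cerebellum (SE 0.939; edgeR, adjusted p = 0.29), -0.29 for Kank4os in the hippocampus (SE 0.412; edgeR, adjusted p = 0.919) and 0.10 for 9430018G01Rik there (SE 0.459; edgeR, adjusted p = 0.99).

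The position of cKO+/- against the midpoint of the log2 levels of control and cKO-/- is given as a description with no p, since the libraries at both ends chose the members. In the cerebellum 9430018G01Rik lay 2.06 below that midpoint (SE 0.296), Kank4os 1.26 below it (SE 0.233) and Gm4371 0.34 below it (SE 0.204). In the hippocampus Igbp1b lay 0.09 above the midpoint (SE 0.135), an interval of 2 SE from -0.18 to 0.36, Platr14 0.31 below it (SE 0.25) and Gm4371 0.50 below it (SE 0.14). The size for Gm364 depends on how a level of 0 is fitted and is not given. Over all genes, edgeR called 0.0214% of 14027 away from the midpoint in the cerebellum and 0.0% of 14339 in the hippocampus, where 1425 genes were at an unadjusted p under 0.05 and DESeq2 called 12, and nothing is read from these for the members.

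The members split by tissue. In cKO-/- animals, whose levels chose the members, the paired ratio of hippocampal to cerebellar CPM was below 1 in all 6 animals for Gm364 (0.224 to 0.373), Kank4os (0.202 to 0.388) and 9430018G01Rik (0.0698 to 0.531). It was above 1 in all 6 for Platr14 (1.10 to 5.07) and Gm4371 (1.21 to 2.33), and Igbp1b had no cerebellar count to form a ratio with. These CPM were scaled within each tissue. Per kilobase of exon, the levels in cKO-/- cerebellum descended from 10.2 CPM per kb for Gm364 through 1.62 for Gm4371, 1.46 for 9430018G01Rik, 1.40 for Kank4os and 0.719 for Platr14 to 0 for Igbp1b. The 3 in the middle of that order did not differ beyond their spread, with coefficients of variation from 14.97% to 17.99%. In cKO-/- hippocampus the order was Gm364 at 2.96, Gm4371 at 2.84, Platr14 at 1.57, Igbp1b at 1.51, 9430018G01Rik at 0.442 and Kank4os at 0.40 CPM per kb, and the neighbours in each of these 3 pairs lay within their spread.

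**Figure D3:**
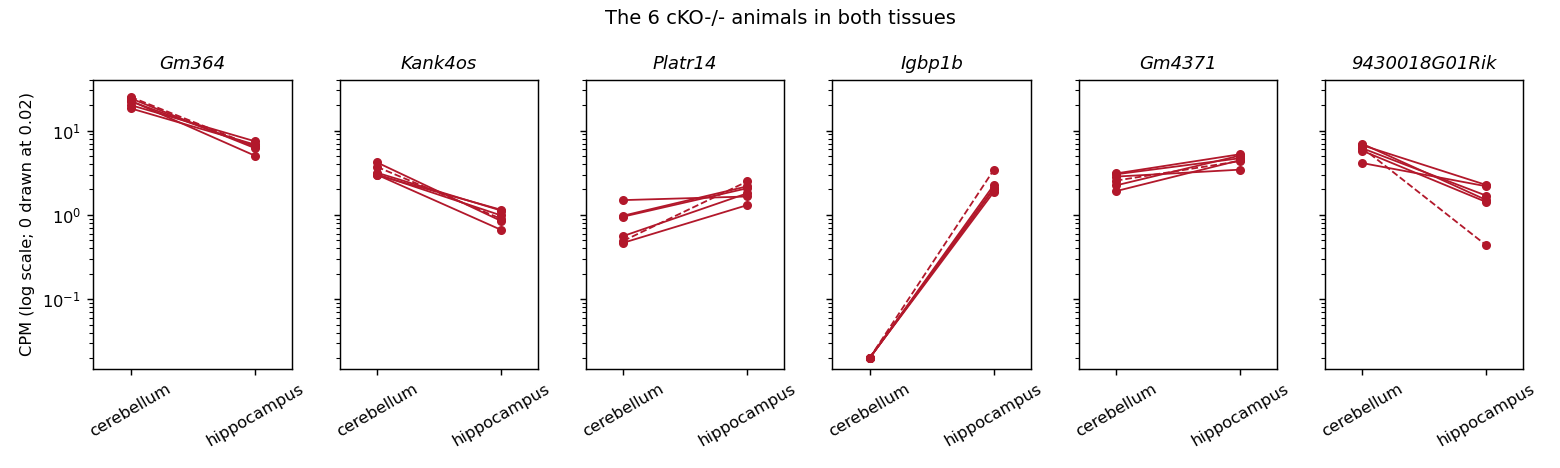
CPM (log axis, zeros drawn near the lower end) of each transcript in the cerebellum and hippocampus of the 6 cKO-/- animals, 1 line per animal, dashed for Sample_1160. Lines fell towards the hippocampus for Gm364, Kank4os and 9430018G01Rik and rose for Platr14, Igbp1b and Gm4371, in all 6 animals each.

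A fit over both tissues tested the split in cKO+/- animals, whose libraries the choice did not use. All members but Gm4371 passed its filter only with cKO-/- libraries. Their calls are thus not independent of the choice, and nothing is read from the count of members called. Of 6 members, 5 were called between hippocampus and cerebellum, where 72.5% of 14870 genes were called, so that a tissue difference as such was common. Gm4371 was higher in the hippocampus by 1.36 (log2, SE 0.189; edgeR, adjusted p = 1.2e-07) and Platr14 by 2.12 (SE 0.462; edgeR, adjusted p = 0.000142). Igbp1b, with 26 to 47 hippocampal counts against 0 in the cerebellum of the same animals, was called as well (edgeR, adjusted p = 3.16e-12). Kank4os was lower in the hippocampus by 1.74 (log2 difference -1.74, SE 0.324; edgeR, adjusted p = 1.62e-05), and so was 9430018G01Rik (log2 difference -1.02, SE 0.412; edgeR, adjusted p = 0.0265). The last call was lost with all 18 hippocampal libraries (adjusted p, edgeR, 0.0534) and without cKO+/- Sample_1120 (0.0543) or Sample_1433 (0.0859). Gm364, with 3 counts in all cKO+/- hippocampi and 0 in the cerebella, was not called (edgeR, adjusted p = 0.0667). With the animal as a replicate block, which pairs the tissues, it was (edgeR, adjusted p = 0.046). Both tissues were at the floor of 3 counts, so no tissue difference of Gm364 is read from this.

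No member was called for a difference of the cKO+/- effect between the tissues by edgeR, where 0.074% of 14870 genes (11) were; 2 members were under an unadjusted p of 0.05. The effect in the hippocampus minus that in the cerebellum was -0.81 for Gm4371 (log2, SE 0.283; edgeR, adjusted p = 0.293) and -1.39 for Kank4os (SE 0.484; edgeR, adjusted p = 0.379), and it could not be fitted for Igbp1b. Sex was tested within cKO-/- as male minus female, and no member was called by edgeR or DESeq2, with 0 under an unadjusted p of 0.05. The members' differences ran from -0.31 for Gm4371 to 0.10 for 9430018G01Rik in the cerebellum and from -0.20 for Gm4371 to -0.08 for Platr14 in the hippocampus. Of all genes, 0.0356% (5 of 14027) and 0.0418% (6 of 14339) were called for sex in the 2 tissues. X-linked Gm364 had 430 to 722 cerebellar counts in the 3 males and 539 to 654 in the 3 females, with a sex difference of 0.02 (log2, SE 0.191).

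The members lay on 5 chromosomes, and 37 other listed genes had a span within 250 kb of one. Of these, 20 were tested in the cerebellum and 22 in the hippocampus, with the number of intact alleles as a trend. None was called in the cerebellum by edgeR, where 13.7% of 14027 genes were, with 7 under an unadjusted p of 0.05. DESeq2 called 2 there, the tight junction gene Inadl at -0.22 per allele (adjusted p = 0.0303) and the LIM-only gene Lmo3 at 1.29 (adjusted p = 0.0259). Inadl was also called by edgeR in the cerebellum without cKO-/- Sample_936 (adjusted p = 0.0254) or control Sample_1155 (0.0404), Lmo3 without cKO+/- Sample_1433 (0.0261) and Cstf3, a neighbour of Platr14, without cKO-/- Sample_1160 (0.0328) or control Sample_1170 (0.0491). In the hippocampus 1 was called, where 4.44% of 14339 genes were. Leaving out control Sample_1129, whose library held granule cell RNA, added Inadl (0.43 per allele, SE 0.0678; edgeR, adjusted p = 0.00147). The neighbour called was Gpr101, which encodes an orphan G protein-coupled receptor and lay 7897 bases beyond the end of Gm364 on the opposite strand.

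Gpr101 in hippocampal controls had 270, 210, 552, 409, 403 and 318 counts, in cKO+/- 492, 369, 919, 347, 768 and 635, and in cKO-/- 699, 989, 824, 507 and 463, with 532 in Sample_1160. In CPM all cKO-/- libraries, at 17.4 to 33.3 and 13.7 for Sample_1160, lay above all controls, at 5.46 to 11.9, and 3 of the 6 cKO+/- libraries did so by a wide margin. It rose by 0.73 per allele lost (log2, SE 0.142; edgeR, adjusted p = 0.00607), or by 0.67 with all 18 libraries (edgeR, adjusted p = 0.024), and its level of 9.16 ± 2.32, 17.8 ± 7.78 and 25.6 ± 6.84 CPM was intermediate in cKO+/-, where Gm364 was at the floor. With a covariate marking high and low animal numbers the call was lost (edgeR, adjusted p = 0.0647). In the cerebellum, where Gm364 was higher, Gpr101 was at 1.32 ± 0.933, 1.40 ± 0.81 and 1.35 ± 0.658 CPM, a trend of 0.03 per allele (SE 0.226; edgeR, adjusted p = 0.949).

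**Figure D4:**
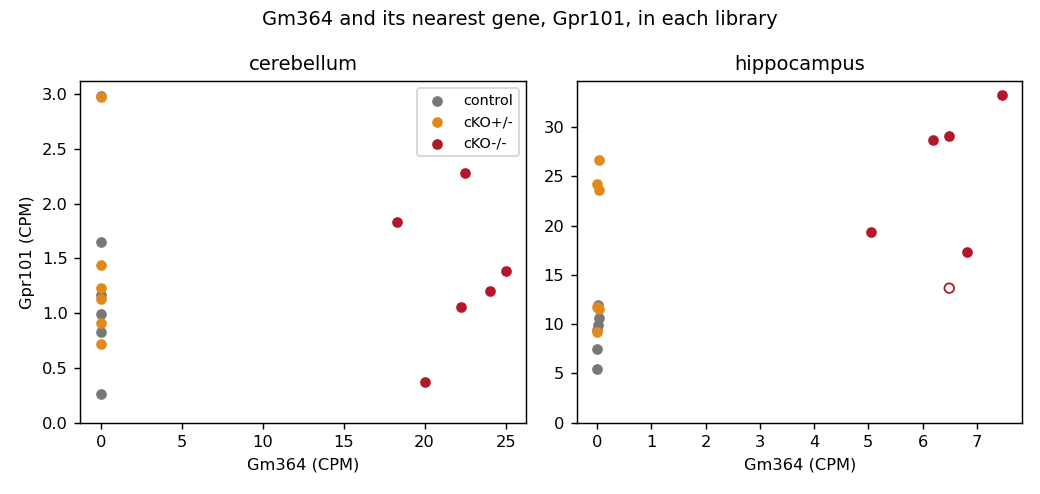
Gpr101 against Gm364 in each library (CPM, linear axes), coloured by genotype; the open circle is the hippocampal library of Sample_1160. In the hippocampus Gpr101 was above 17 CPM in all filled cKO-/- points and also in 3 cKO+/- libraries with at most 1 Gm364 count, while in the cerebellum it stayed under 3 CPM in all libraries.

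Kank4, which Kank4os overlaps, did not pass the test. It was at 9.98 ± 0.566, 12.8 ± 3.76 and 13.3 ± 4.54 CPM in control, cKO+/- and cKO-/- cerebellum (0.20 per allele, SE 0.0966; edgeR, adjusted p = 0.162) and at 4.43, 4.12 and 3.67 CPM in the hippocampus (-0.14 per allele, SE 0.0591; edgeR, adjusted p = 0.21). The partner of Gm4371, the lncRNA 2610037D02Rik, failed the filter in both tissues. It held 0 to 2 counts in control, 1 to 7 in cKO+/- and 2 to 21 in cKO-/- cerebellum, and 5 to 19, 14 to 22 and 16 to 37 counts in the hippocampus, levels that stepped up with each allele lost while the groups overlapped. The fit without a filter called it in both, at 1.72 per allele in the cerebellum (SE 0.293; edgeR, adjusted p = 0.000987) and 0.82 in the hippocampus (SE 0.133; edgeR, adjusted p = 0.00128). How many of the reads of Gm4371 and 2610037D02Rik are shared was not tested.

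Of the other nearest genes, Rbmx, of an RNA-binding splicing protein 16113 bases from Gm364, had a trend of -0.05 and -0.01 per allele in cerebellum and hippocampus, and Cstf3, of a 3′ end cleavage factor 19055 bases from Platr14, of -0.11 and -0.02, and none of these passed the test. Hipk3, a kinase gene on the other side of Platr14, had -0.01 and 0.05, and Usp1, a deubiquitinase gene 124773 bases from Kank4os, -0.04 and -0.02, again with no call. L1td1, D030018L15Rik, 4833422M21Rik and Nobox, the nearest genes on other sides, failed the filter in both tissues, and B230110G15Rik, 57778 bases from Igbp1b, was tested only in the hippocampus (0.26 per allele, SE 0.123; edgeR, adjusted p = 0.246). The median of the tested neighbours was 0.03 per allele in the cerebellum and 0.04 in the hippocampus, beside 0.00 over all genes tested.

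**Figure D5:**
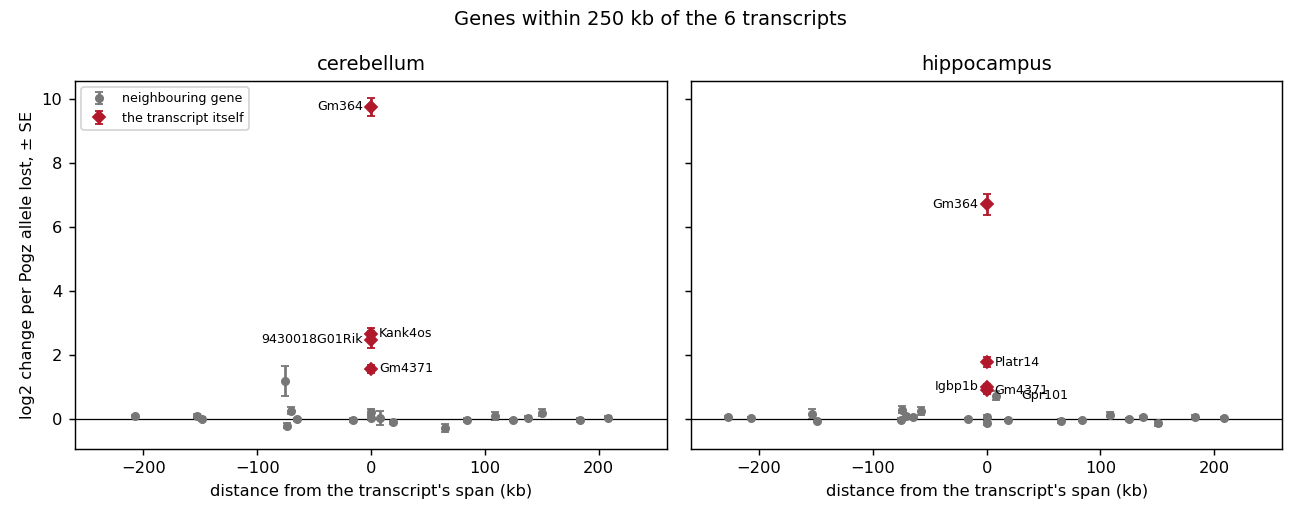
Log2 change per Pogz allele lost, with SE, of the genes tested within 250 kb (grey) against distance in kb from the span of the transcript, and of the 6 transcripts themselves where tested (red, a description since they were chosen by it). Gpr101 was the 1 neighbour called, in the hippocampus, and the cerebellar point near 1.19 is Lmo3, whose adjusted p was 0.1.

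The same fit gave trends for the members as a description: 9.76 per allele for Gm364, 2.67 for Kank4os, 2.48 for 9430018G01Rik and 1.56 for Gm4371 in the cerebellum, and 6.71 for Gm364, 1.78 for Platr14, 1.002 for Igbp1b and 0.89 for Gm4371 in the hippocampus. The values for Gm364 depend on how its zeros are fitted, at 5.86 by DESeq2 and 10.87 without control Sample_1155, whose library held the 1 read among cerebellar controls, against 9.76.

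The relatives of the members were read from lists, beside 13.7% of all genes called by edgeR in the cerebellum and 4.44% in the hippocampus. The 11 other Platr transcripts listed all failed the filter in both tissues, with summed levels of 0.151 to 0.568 CPM in control and 0.299 to 0.68 CPM in cKO-/- cerebellum. Among the 4 Kank genes, all tested, Kank3 fell by 0.27 per allele in the cerebellum (SE 0.0526; edgeR, adjusted p = 0.00332), from 22.6 ± 2.69 to 15.6 ± 2.42 CPM, and edgeR called no other in either tissue, while DESeq2 called 3 in the cerebellum. Igbp1 itself was at 34.1 ± 3.0, 33.1 ± 1.56 and 32.3 ± 2.87 CPM in the cerebellum and at 25.7 ± 1.6, 24.6 ± 0.815 and 25.7 ± 1.69 CPM in the hippocampus. None of the 11 listed genes of Igbp1 and protein phosphatase 2A was called by edgeR or DESeq2 in either tissue (1 and 2 under an unadjusted p of 0.05), at a median of -0.02 and 0.00 per allele. Over its 1308 windows of 43 bases, the read length, the Igbp1b transcript (GENCODE release for NCBIM37) shared none with another coding transcript, and Gm364 shared none of 2114.

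Germ cells and pluripotent cells express many genes that are silent in brain, and their markers were counted in the same way. The share of all genes called by edgeR was 13.7% in the cerebellum and 4.44% in the hippocampus. Of 12 germ cell markers, 5 were tested in the cerebellum, and Ddx4, an RNA helicase of the germ line, rose by 0.47 per allele (SE 0.103; edgeR, adjusted p = 0.00697), from 1.53 ± 0.615 to 2.90 ± 1.31 CPM, and Sycp1, of the synaptonemal complex, by 0.31 (SE 0.0725; edgeR, adjusted p = 0.0106), while Zbtb16 fell by 0.57 (SE 0.158; edgeR, adjusted p = 0.0237). In the hippocampus 4 were tested and Zbtb16 fell (0.21 per allele, SE 0.053; edgeR, adjusted p = 0.0318). The summed germ cell level ran from 47.9 to 61.6 CPM in control and from 47.1 to 91.9 CPM in cKO-/- cerebellum. Of the sperm protamine and transition protein genes, Prm2 and Tnp1 had no count there. Prm1 was at 0.115, 0.141 and 0.134 CPM in control, cKO+/- and cKO-/- cerebellum, and Tnp2 at 0.0399, 0.0155 and 0.0233 CPM. Mael, which also failed the filter, was at 0.0805 ± 0.058, 0.12 ± 0.109 and 0.284 ± 0.265 CPM there. Of 12 pluripotency markers, 8 held at most 3 counts in every library of each tissue, Zfp42 had none in either, and none of the 2 and 1 tested was called by edgeR or DESeq2 (1 and 0 under an unadjusted p of 0.05). Dppa2, of the same list, failed the filter but was higher in cKO-/- cerebellum. It was at 0.228 ± 0.0703, 0.318 ± 0.0564 and 1.54 ± 0.333 CPM in control, cKO+/- and cKO-/- cerebellum. Its hippocampal levels were 0.032 ± 0.0282, 0.0438 ± 0.031 and 0.127 ± 0.11 CPM.

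Markers of brain cell types were counted as well. Of all genes tested, edgeR called 13.7% of 14027 in the cerebellum and 4.44% of 14339 in the hippocampus for this trend, up or down. The lists are short, and no change of a cell type is read from their counts. In the cerebellum 3 of 5 astrocyte markers, 3 of 7 of hippocampal neurons, 3 of 6 of meninges, 2 of 5 of microglia and 1 of 5 of oligodendrocytes rose with allele loss, while 1 of 8 of granule cells and 1 of 5 of endothelium fell and none of 7 Purkinje or 6 choroid plexus markers was called by edgeR (2 and 1 under an unadjusted p of 0.05; DESeq2 called 0 and 1). In the hippocampus 1 of 5 astrocyte, 1 of 5 endothelial, 1 of 6 meningeal and 1 of 10 hippocampal neuron markers rose and 2 of the latter fell. None of 5 granule cell, 6 Purkinje, 7 choroid plexus, 5 oligodendrocyte or 5 microglia markers was called there by edgeR or DESeq2, with 3 oligodendrocyte markers under an unadjusted p of 0.05 and 0 of the others. The summed meningeal level ran from 104 to 134 CPM in control and from 118 to 239 CPM in cKO-/- cerebellum, and that of choroid plexus from 21.2 to 29.3 and from 21.9 to 3060 CPM. The part of these cell types in the members' levels was not tested, and Gm364 was at 22.5 CPM in the cKO-/- cerebellum with Ttr at 2807 CPM and at 24.1 CPM in the one with Ttr at 0.0333 CPM.

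Gm364 stood first among genes silent in controls. In the cerebellum 7273 genes had at most 3 counts in every control, and 14 of them (0.192%) reached a mean of 1 CPM or more in cKO-/-. Only 3 of the 14 held more than 3 counts in every cKO-/- library, Gm364, the lncRNA Gm13544 (217 to 474 counts, 12.4 ± 2.91 CPM) and Clca4a (22 to 43 counts, 1.23 ± 0.199 CPM). Next in mean level were Cbln2 (5.25 ± 9.55 CPM), Kcne2 (3.68 ± 8.42 CPM, with 6.85 CPM in cKO+/-) and AW551984 (3.47 ± 5.87 CPM), each with a cKO-/- library at 0 counts and an SD above its mean. In the hippocampus 5 of 6442 such genes (0.0776%) reached that level, and Gm364 was the only one in every library. The others were Mirlet7g (1.59 ± 3.35 CPM), Tulp1 (1.47 ± 2.88 CPM), Crx (1.20 ± 2.44 CPM) and Mirlet7a-2 (1.16 ± 2.30 CPM), carried by single libraries.

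Which genes resembled a member across libraries was described by Pearson's r of log2(CPM + 1) over the 18 cerebellar or 17 hippocampal libraries of a tissue, which share their genotype and depth. The members were chosen for low controls and high cKO-/- libraries, so a high r between them follows from that choice and is no finding. Libraries of all 3 genotypes enter r, so other genes that rise with allele loss, such as Dach2, also reach a high r. No likeness beyond the shared genotype difference is read from it. In the cerebellum Gm364 was most like Gm13544 (r = 0.995), Kank4os (r = 0.989) and 9430018G01Rik (r = 0.986), and for 9430018G01Rik the nearest were again Gm13544 (r = 0.99), Gm364 and Kank4os (r = 0.983). Amelx, of the enamel protein amelogenin, followed for Kank4os (r = 0.985), at 0.0448, 0.254 and 3.07 CPM in control, cKO+/- and cKO-/-. Gm4371 was most like Dmp1, a mineralised matrix protein gene (r = 0.96), Col4a6, a basement membrane collagen gene (r = 0.958), and Akr1c13, an aldo-keto reductase gene (r = 0.958). In the hippocampus Gm364 was most like Akr1c13 (r = 0.978), Gm4371 (r = 0.944) and Platr14 (r = 0.934).

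The hippocampal members with a level in cKO+/- shared a neighbour in this order. Dach2, a transcription cofactor gene at 0.842, 3.88 and 21.2 CPM, was nearest to Platr14 (r = 0.958) and to Igbp1b (r = 0.955) and second for Gm4371 (r = 0.933). Platr14 was next most like Dmp1 and Pstpip2 (both r = 0.953), and Igbp1b like Tgm6, a transglutaminase gene (r = 0.949), and Olfr316, an olfactory receptor gene (r = 0.943). Gm4371 was most like Gm364 (r = 0.944) and, after Dach2, Akr1c13 (r = 0.927).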

How the data were processed

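Poly(A) RNA libraries of the cerebellum and hippocampus of 18 mice (TruSeq kit, NextSeq, 43 bp paired-end reads) were sequenced by the authors. Per the labels and methods, the authors aligned the reads to mm9 and counted them per gene with STAR 250a, and deposited the counts as whole numbers without normalization, 1 table of 24421 genes per tissue. The coordinates in the tables are GRCm38: 23051 of 23204 symbol-matched genes (99.3%) overlapped their RefSeq position. The handling of strand and of multiply mapped reads is not given in the sources used here.

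Genes above 1 CPM in at least 6 libraries of a tissue were tested with the quasi-likelihood F-test of edgeR 4.0.16 (legacy form, TMM factors, R 4.3.3), with sex as a covariate, Benjamini-Hochberg adjustment over all genes tested and a threshold of 0.05. Genotype was a factor, or the number of intact alleles for the trend, given with its sign turned to read per allele lost. The hippocampal library of cKO-/- animal Sample_1160 was left out of the fits but not of the filter and factors. Counting intervals of 95% on ratios are exact binomial ones, the floor of a sum is 3 counts, and the SE of the position of cKO+/- is from the delta method. Depth limits a member at 0 counts to about 0.02 CPM per group. Replicates are separate animals.

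Both tissues came from the same animals by their numbers in the labels. Over 13587 genes, the deviations of an animal's libraries from their group means had a median correlation of 0.204 between the tissues (from -0.153 to 0.437, above 0.1 in 13 of 17 animals). The alternatives tried were no filter, DESeq2 1.42.0, size factors by relative log expression, all 18 hippocampal libraries, a covariate for animal numbers outside Sample_1120 to Sample_1219 (the range that holds every control), the animal as a replicate block, other windows and count limits, and each animal left out.

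The members, lists, tests and alternatives were chosen with earlier results of these data known. Genes named are the members, Pogz, overlapping and nearest genes, neighbours and listed relatives that passed, the 3 genes most correlated with a member, and the 5 silent genes per tissue highest in cKO-/-. Clca4a, Inadl, Dppa2, Mael, Prm1 and Tnp2 were named after their values were seen. Values of some genes near the members are not reported here. The tests were checked on simulated counts.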

Additional observations from a re-analysis of the deposited data

Results flagged for a closer look

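Among 32 groups of 6 libraries with a spread, 3 had a highest library farther from the rest than Dixon's 95% critical value allows. For normally spread values chance alone flags about 1 in 20 groups, a rate that does not hold for groups of 0 and 1 counts. Control Sample_1155 had the 1 Gm364 count among cerebellar controls (0.0344 CPM), with all others at 0. A single read beside zeros is flagged by construction, and nothing is read from it. The hippocampal library of cKO-/- Sample_1160 was highest for Igbp1b at 3.39 CPM (132 counts), next to 2.24 CPM. The hippocampal library of cKO+/- Sample_1120 was highest for Platr14 at 0.763 CPM (29 counts), next to 0.468 CPM, and the cerebellum of that animal held 5 Platr14 counts, inside its group's range.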

How the results depend on the processing

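Of the members called between cKO+/- and control, the cerebellar count of 1 went to 0 with relative log expression size factors, with no filter and with the covariate for animal numbers, and lay between 0 and 1 with an animal left out. The hippocampal count of 1 went to 2 by DESeq2, which added Platr14, to 0 with that covariate (Igbp1b, edgeR, adjusted p = 0.0695) and lay between 0 and 2 with an animal left out. Igbp1b and Platr14 passed the filter only with cKO-/- libraries, so nothing is read from these hippocampal counts. Members called away from the midpoint went from 1 to 3 by DESeq2 in the cerebellum (0 to 1 with an animal left out) and from 0 to 1 in the hippocampus. The libraries that chose the members lie at both ends of that midpoint, and these counts support nothing. Leaving out a cKO-/- animal left 1 member above the filter in the cerebellum, since the filter asks for 6 libraries. Neighbours called in the cerebellum went from 0 to 2 by DESeq2, 2 with no filter, 3 within 1000 kb and 0 to 1 with an animal left out; in the hippocampus from 1 to 2 with no filter, 0 with the covariate and 1 to 2 with an animal left out. Genes silent in controls and at 1 CPM in cKO-/- went from 14 to 2 with a limit of 0 counts and to 40 with 10 counts in the cerebellum, and from 5 to 1 and 10 in the hippocampus, by construction. For the other changes the cause was not tested. With the animal as a replicate block, which pairs the tissues, 6 members were called between them in cKO+/- in place of 5. The addition was Gm364, which was at the floor of 3 counts in both tissues, and nothing is read from it. The block changed no other member's call. Of 583 single member values under alternatives, 9 changed sign with neither value called, and none reversed a call. Genes called for the allele trend in the cerebellum were 1916, and 308 with the covariate; for cKO+/- against control they were 48, 158 by DESeq2 and 24 with the covariate. At these depths a member under 3 counts in a group cannot be told from 0.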
